A study of Mus musculus with 8 samples.

Results

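The 10 genes described here encode regulatory T cell factors and immune checkpoint proteins: Foxp3, Ikzf2, Ctla4, Icos, Pdcd1, Lag3, Il2ra, Cd274, Pdcd1lg2 and Il10. They were taken by name, with no measured value in the rule, from the 41388 Ensembl genes counted, and each of the 10 symbols matched 1 gene. The choice was made with earlier results of these data known. The 8 bulk RNA-seq libraries came from whole ear skin of C57Bl/6 mice, all adult and of WT (wild-type) genotype. The vehicle group was 4 mice given ethanol, and the MC903 group was 4 mice given 1 nmol of topical MC903 daily for 12 days. MC903 is calcipotriol, a vitamin D analog whose repeated application to the ear is used to model itchy, atopic dermatitis-like inflammation. No further allele, transgene or agent was named for either group, and age was given only as adult.

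Regulatory T cells are CD4+ T cells that restrain immune responses, and the transcription factor FOXP3 defines their lineage. Many of them carry the IL-2 receptor alpha chain (CD25, from Il2ra), CTLA-4, ICOS and the transcription factor Helios (from Ikzf2), and they can secrete interleukin 10. Checkpoint receptors such as PD-1 (from Pdcd1), CTLA-4 and LAG-3 dampen T cell activation when they meet their ligands, which for PD-1 are PD-L1 (from Cd274) and PD-L2 (from Pdcd1lg2). Healthy skin holds resident regulatory T cells, many of them near hair follicles. Most of the 10 proteins are not exclusive to regulatory T cells: conventional T cells use ICOS, PD-1, LAG-3 and CTLA-4 after activation, and macrophages, dendritic cells and keratinocytes can make PD-1 ligands.

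In mm10 coordinates of the deposited tables, several of the genes are neighbours. Ctla4 (chr1:60887000-60915832) and Icos (chr1:60977927-61000320), both on the plus strand of chromosome 1, are 62095 bases apart, and Cd28 (chr1:60716800-60773359), their relative, ends 113641 bases before Ctla4. Cd274 (chr19:29367455-29388095) and Pdcd1lg2 (chr19:29410919-29471157) follow each other on the plus strand of chromosome 19 at a distance of 22824 bases. Foxp3 lies at chrX:7579676-7595243 and Il2ra at chr2:11642792-11693191, both on the plus strand. Pdcd1 (chr1:94038305-94052553), Ikzf2 (chr1:69531214-69687245) and Lag3 (chr6:124904361-124911705) are on the minus strand, and Il10 (chr1:131019845-131024974) is on the plus strand. Counts are of reads over the exons of each gene.

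Promoter sequences were matched by symbol in a RefSeq table for GRCm38.p6, the assembly of mm10, for 6 of the 10 genes: Foxp3 (2 start sites), Ctla4, Il2ra, Pdcd1, Cd274 and Pdcd1lg2. The 250 bases before the start are shown for Foxp3 and Ctla4, which define regulatory T cells and their best known checkpoint, and for the adjacent PD-1 ligand genes. All lie on the plus strand and read 5′ to 3′. Capitals mark matches, on either strand, to TATAAA (a core promoter element), TGGAAA (a core bound by NFAT factors), TTCNNNGAA (a STAT site), the site of interferon regulatory factors (GAAA, any 2 bases, and the same 4 letters again) or the direct repeat bound by the vitamin D receptor. The second Foxp3 start and the Ctla4 start lie inside the gene spans given above, which begin further upstream.
Foxp3, first start, chrX:7579426-7579675: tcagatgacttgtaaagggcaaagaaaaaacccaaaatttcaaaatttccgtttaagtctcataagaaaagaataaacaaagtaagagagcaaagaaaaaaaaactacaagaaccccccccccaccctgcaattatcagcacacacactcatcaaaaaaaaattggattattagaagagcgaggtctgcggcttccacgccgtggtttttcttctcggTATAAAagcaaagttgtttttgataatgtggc
Foxp3, second start, chrX:7580233-7580482: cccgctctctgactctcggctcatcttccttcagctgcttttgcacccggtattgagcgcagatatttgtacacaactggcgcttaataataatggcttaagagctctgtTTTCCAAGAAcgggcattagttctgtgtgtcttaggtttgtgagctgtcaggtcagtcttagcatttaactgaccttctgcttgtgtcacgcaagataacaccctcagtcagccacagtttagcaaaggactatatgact
Ctla4, chr1:60908775-60909024: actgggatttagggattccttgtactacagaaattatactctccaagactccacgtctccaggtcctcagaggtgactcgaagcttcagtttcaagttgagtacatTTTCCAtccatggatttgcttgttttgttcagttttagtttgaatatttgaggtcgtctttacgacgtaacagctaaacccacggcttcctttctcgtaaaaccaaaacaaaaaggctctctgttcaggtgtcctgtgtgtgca
Cd274, chr19:29367188-29367437: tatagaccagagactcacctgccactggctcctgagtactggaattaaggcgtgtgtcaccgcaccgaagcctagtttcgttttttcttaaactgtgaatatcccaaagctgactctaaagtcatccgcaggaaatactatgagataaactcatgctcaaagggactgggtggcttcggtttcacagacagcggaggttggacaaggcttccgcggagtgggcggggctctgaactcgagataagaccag
Pdcd1lg2, chr19:29410669-29410918: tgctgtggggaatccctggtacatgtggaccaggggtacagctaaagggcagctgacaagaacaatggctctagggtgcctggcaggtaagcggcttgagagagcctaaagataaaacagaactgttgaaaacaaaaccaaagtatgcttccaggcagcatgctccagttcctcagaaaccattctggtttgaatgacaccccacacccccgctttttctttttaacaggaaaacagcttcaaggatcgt
The first Foxp3 window holds a TATAAA match at positions -32 to -27 from the start, and the second holds a TTCNNNGAA match that overlaps a TGGAAA match. Ctla4 has 1 TGGAAA match, and the windows of Cd274, Pdcd1lg2, Il2ra and Pdcd1 hold none of the 5 motifs. Of all 32851 promoter windows of the same length in the table, 12.4% hold TATAAA, 18.6% TGGAAA, 7.02% TTCNNNGAA, 2.98% the interferon regulatory factor site and 0.0396% the vitamin D receptor repeat. A match is a description of letters and not of bound protein.

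Library totals ran from 12310466 to 16837221 counts, and levels are given as counts per 1000000 (CPM) scaled by TMM factors, a normalization that discounts a few dominant genes. That scaling matters for vehicle replicate 2, where 7 salivary gland genes took 28.1% of all counts, against 0.0201 to 0.0507% in the other 7 libraries. Of these 7 genes 4 could be tested, and all 4 were called lower in MC903 libraries, a difference that vehicle replicate 2 carries. The scaling does not remove what salivary gland RNA may add to other genes, and that part was not tested. Vehicle replicate 2 was the highest vehicle library for Foxp3, Ctla4, Icos, Pdcd1, Ikzf2, Il10 and Lag3, but not for Il2ra, Cd274 or Pdcd1lg2. A count of 3, taken as the detection floor, corresponded to 0.171 to 0.250 TMM-adjusted CPM. The keratinocyte genes Krt5 and Krt14 stood at 1259 ± 60.9 and 1939 ± 257 CPM (mean ± SD, n = 4) in vehicle libraries, so the libraries carry the epidermal markers of the labelled tissue. This pair was named after its values were seen.

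MC903-treated ears held more RNA of 8 of the 10 genes, less of Ikzf2, and a level of Lag3 that did not pass the test. The rises ran from a log2 fold change of 1.64 ± 0.17 (SE) for the PD-1 ligand gene Cd274 to 3.78 ± 0.29 for the other ligand gene, Pdcd1lg2. All 10 genes were tested among 16105, with edgeR's quasi-likelihood F-test and Benjamini-Hochberg adjustment at a threshold of 0.05. Over all genes tested, 41.5% were called, 21.3% higher and 20.2% lower. In 9 of the 10 genes, all but Lag3, the 4 MC903 values lay wholly on one side of the 4 vehicle values, against 38.7% of all genes tested (19.8% higher, 18.9% lower). Foxp3, Pdcd1, Pdcd1lg2 and Il10 passed the filter on low counts only through the MC903 libraries, so their presence among tested genes already favoured a higher level there. Of the list genes described below, at least Cd80, Tigit, Izumo1r, Cd8a and Cd8b1 were in the same position. The median log2 fold change of the 10 genes was 2.44, and that of all genes tested was -0.03. In bulk tissue, a change in the number of cells and a change in RNA per cell cannot be told apart.

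**Figure D1:**
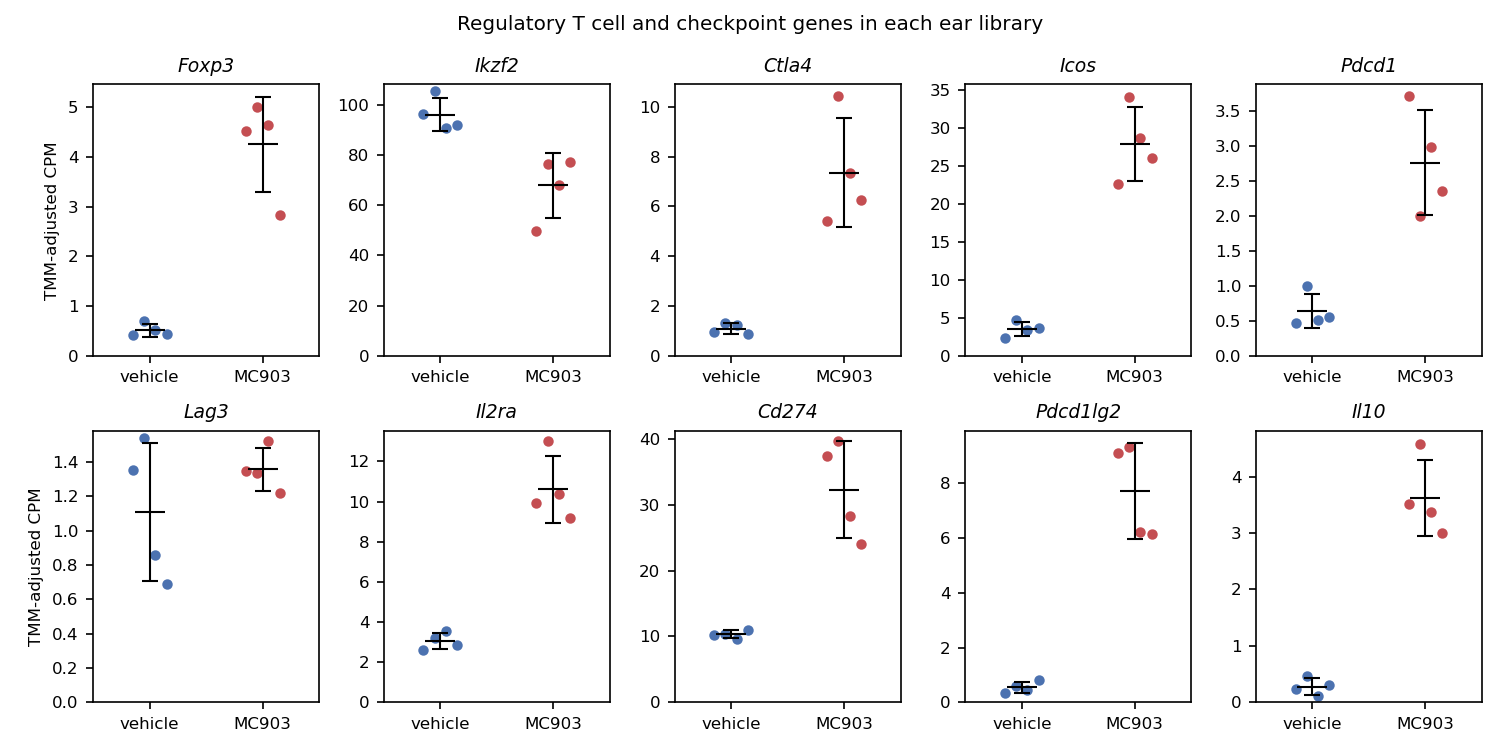
TMM-adjusted CPM of the 10 genes (vertical axes, each from 0) in 4 vehicle and 4 MC903 ear libraries; points are libraries, black lines the mean and SD. The groups separate in every panel except Lag3, and Ikzf2 is the gene that is lower in MC903 libraries.

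Foxp3, the lineage-defining factor of regulatory T cells, stood at 0.412, 0.692, 0.514 and 0.437 CPM in vehicle replicates 1 to 4 and at 4.52, 5.0, 4.64 and 2.84 CPM in MC903 replicates 1 to 4. The lowest MC903 library, replicate 4, was still far above the highest vehicle library. Foxp3 rose by 3.05 ± 0.28 on the log2 scale (adjusted p = 1.19e-05), from 0.514 ± 0.126 to 4.25 ± 0.961 CPM. The vehicle libraries held only 7, 9, 9 and 7 Foxp3 counts, and the summed counts, scaled to the groups' summed TMM-adjusted library sizes, rose 8.49-fold, with a 95% exact interval of 5.85 to 12.7 (counting error only). The Foxp3 model of 3989 exon bases shares 267 bases with Flicr, a long noncoding RNA of the same strand, and 373 and 590 bases with Ppp1r3f and Ccdc22 on the other strand. How reads in shared bases were counted is not stated. Flicr itself was at 1.77 ± 0.694 CPM in vehicle and 0.874 ± 0.173 CPM in MC903 libraries, a log2 fold change of -1.03 ± 0.33 (adjusted p = 0.0282), so the sense neighbour moved the opposite way to Foxp3, though its groups overlapped. Flicr was picked after its overlap and values were seen.

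Ikzf2 encodes Helios, a zinc-finger factor of many regulatory T cells that other lymphocytes and tissue cells also use. It stood at 96.1, 105, 90.7 and 91.9 CPM in the vehicle libraries and at 49.5, 76.3, 68.1 and 77.3 CPM in the MC903 libraries. Every MC903 value was below every vehicle value, and MC903 replicate 1 was the lowest. In vehicle libraries Ikzf2 lay above the summed level of Cd3d, Cd3e, Cd3g and Cd247 (52.1 to 72.5 CPM). In MC903 libraries it overlapped with that sum (51.3 to 71.1 CPM). Which cells carried the Ikzf2 RNA was not tested. Ikzf2 fell, with a log2 fold change of -0.50 ± 0.15 (adjusted p = 0.0185), the smallest change among the 9 called genes. It was the only call among the 10 that was lost in any refit of this comparison. Without vehicle replicate 2 the adjusted p was 0.050, just on the other side of the threshold. Without vehicle replicates 2 and 4 it was 0.107. Vehicle replicate 2 had the highest Ikzf2 level and is the library where salivary gland genes took 28.1% of all counts. Of its 11613 exon bases, 144 overlap Gm29114 on the other strand.

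Ctla4 encodes an inhibitory receptor that competes with CD28 for CD80 and CD86. Its levels were 0.943, 1.31, 1.26 and 0.874 CPM in vehicle and 5.40, 10.4, 7.35 and 6.25 CPM in MC903 libraries, with MC903 replicate 2 the highest. Ctla4 rose by 2.74 ± 0.26, adjusted p = 1.55e-05. Cd28, the activating receptor for the same ligands, was at 6.39 ± 1.91 CPM in vehicle and 7.08 ± 0.953 CPM in MC903 libraries, a difference that did not pass (0.15 ± 0.22, adjusted p = 0.610). The count of Ctla4 divided by that of Cd28 was accordingly 0.106, 0.191, 0.268 and 0.171 in the vehicle libraries and 0.870, 1.25, 1.13 and 0.856 in the MC903 libraries, with no overlap; these count ratios are not scaled for gene length.

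Icos encodes an inducible costimulator of activated and regulatory T cells. It stood at 2.42, 4.69, 3.43 and 3.62 CPM in vehicle and 22.6, 34.2, 28.7 and 26.0 CPM in MC903 libraries. Its rise of 2.98 ± 0.21 had the smallest adjusted p of the 10 genes, 2.12e-06, and the groups were widely separated. The ICOS ligand gene, Icosl, was at 12.5 ± 2.11 and 16.3 ± 3.16 CPM in the 2 groups, overlapped between them and was not called (0.39 ± 0.18, adjusted p = 0.0990).

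Pdcd1, the PD-1 receptor gene, was low throughout, at 0.471, 0.999, 0.514 and 0.562 CPM in vehicle and 3.71, 2.0, 2.98 and 2.35 CPM in MC903 libraries. The groups did not overlap, but the nearest libraries, vehicle replicate 2 and MC903 replicate 2, were closer than in the other rising genes. Vehicle replicate 2 is the library with the salivary gland counts. Pdcd1 rose by 2.14 ± 0.31, adjusted p = 2.91e-04. Lag3, an inhibitory receptor for MHC class II, was at 1.35, 1.54, 0.857 and 0.687 CPM in vehicle and 1.35, 1.33, 1.52 and 1.22 CPM in MC903 libraries. The vehicle values spanned a wider range than the MC903 values and enclosed all 4 of them, on 11 to 23 counts a library. The log2 difference was 0.31 ± 0.29, adjusted p = 0.423, and the library-size-scaled sums of counts differed 1.26-fold, with a 95% exact interval of 0.892 to 1.77. A change of Lag3 was thus not detected, on 69 vehicle counts in all, as many as Ctla4 had.

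Il2ra encodes the chain that gives the IL-2 receptor its high affinity and is abundant on regulatory T cells, and on type 2 innate lymphoid cells too. It stood at 2.59, 3.23, 3.54 and 2.87 CPM in vehicle and 9.92, 13.0, 10.4 and 9.17 CPM in MC903 libraries, 2 narrow and separate ranges. Il2ra rose by 1.79 ± 0.18, adjusted p = 2.05e-05. The signalling chains of the same receptor were higher too: Il2rb by 0.95 ± 0.26, adjusted p = 0.0121, and Il2rg, the common gamma chain, by 1.72 ± 0.18, adjusted p = 3.42e-05. Il2, the cytokine, was too low to test, with 26 counts in all vehicle and 16 in all MC903 libraries.

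Il10, an anti-inflammatory cytokine made by regulatory T cells and by many myeloid cells, was close to the floor in vehicle skin, with 4, 6, 2 and 5 counts in replicates 1 to 4. In CPM it was 0.236, 0.461, 0.114 and 0.312 in vehicle and 3.51, 4.58, 3.38 and 3.0 in MC903 libraries. Vehicle replicate 3 lay below the floor, and all 4 MC903 libraries were many times above it. The fitted rise was 3.70 ± 0.34, adjusted p = 1.18e-05, and the library-size-scaled sum of counts rose 13.4-fold, with a 95% exact interval of 8.17 to 23.5. Of the interleukin 10 receptor chains, the ligand-binding Il10ra rose by 1.43 ± 0.16, adjusted p = 5.60e-05, while the shared chain Il10rb did not pass the test (0.45 ± 0.18, adjusted p = 0.0677).

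Cd274 encodes PD-L1, the broadly expressed PD-1 ligand. It was at 10.3, 10.5, 9.65 and 11.1 CPM in vehicle and 37.3, 39.6, 28.2 and 24.0 CPM in MC903 libraries. The vehicle values were tightly grouped and the MC903 values spread over a wider range well above them. Cd274 rose by 1.64 ± 0.17, adjusted p = 2.67e-05. Pdcd1lg2 encodes PD-L2, the ligand found mainly on antigen-presenting cells. Its levels were 0.353, 0.615, 0.457 and 0.812 CPM in vehicle and 9.11, 9.33, 6.23 and 6.17 CPM in MC903 libraries. This was the largest rise of the 10 genes, 3.78 ± 0.29, adjusted p = 3.43e-06, from 6 to 13 counts a library in vehicle skin, and the library-size-scaled sum of counts rose 13.9-fold, with a 95% exact interval of 9.87 to 20.3.

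Per kilobase of exon, the Pdcd1lg2 level was 0.0759, 0.130, 0.104 and 0.162 of the Cd274 level in vehicle replicates 1 to 4. In MC903 replicates 1 to 4 it was 0.538, 0.519, 0.486 and 0.565. The neighbouring ligand genes thus came closer in level, without overlap between the groups, and Cd274 stayed the higher of the pair in all 8 libraries. Markers of cells that can carry these ligands were summed beside them, a sum in which the most abundant genes weigh most. The 10 macrophage and monocyte markers, all 10 of which were called higher (median log2 fold change 1.57), summed to 495 to 638 CPM in vehicle and 1431 to 1925 CPM in MC903 libraries. Of 10 dendritic and Langerhans cell markers, 5 were called higher and none lower (median 0.52), with a sum of 177 to 207 CPM in vehicle and 309 to 381 CPM in MC903 libraries. Of 7 keratinocyte genes, 3 were called higher and none lower (median 0.34), and the sum was 6373 to 7346 CPM in vehicle and 12718 to 14272 CPM in MC903 libraries. The part of these cells in the rise of Cd274, Pdcd1lg2 and Il10 was not tested.

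Compared per kilobase (TMM-adjusted RPKM), Ikzf2 was the most abundant of the 10 genes in vehicle skin at 8.27 ± 0.565, followed by Cd274 at 2.86 ± 0.160 and Icos at 1.03 ± 0.271 (mean ± SD, n = 4). These 3 did not overlap with each other or with the next gene. From there the order was Il2ra, Lag3, Ctla4, Pdcd1lg2, Pdcd1, Il10 and Foxp3, and each of these genes overlapped with the next in range, down to 0.129 ± 0.0316 for Foxp3. In MC903 skin the order was Cd274 (8.91 ± 2.04), Icos (8.13 ± 1.42), Ikzf2 (5.84 ± 1.11), Pdcd1lg2 (4.69 ± 1.06), Ctla4, Il10, Il2ra, Pdcd1, Foxp3 (1.07 ± 0.241) and Lag3 (0.643 ± 0.0600). Each gene there overlapped with the next in range. Ranges do not compare genes within each library, so the overlap does not mean that neighbours in that order were equal. Ikzf2 went from the first place to the third and Lag3 from the fifth to the last.

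**Figure D2:**
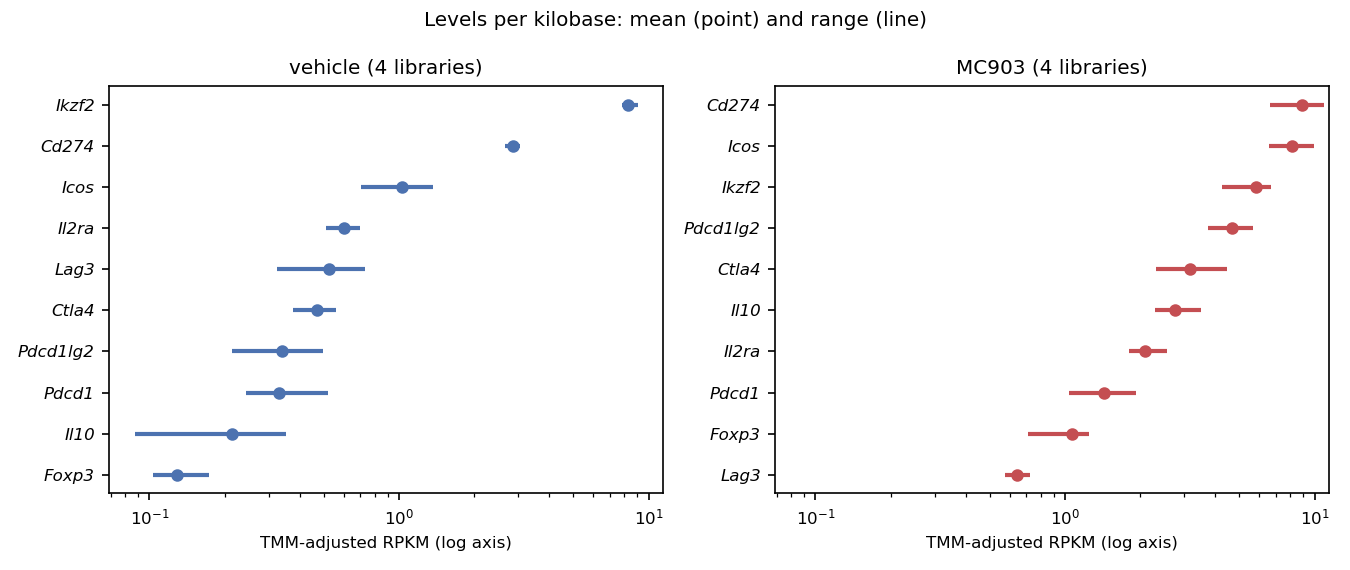
TMM-adjusted RPKM (horizontal log axis) of the 10 genes in vehicle (left) and MC903 (right) libraries; points are means and lines run from the lowest to the highest of 4 libraries. Foxp3 has the lowest mean in vehicle skin and Lag3 in MC903 skin, and Ikzf2 leads only in vehicle skin.

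The ligands, receptors and receptor chains that pair with the 10 genes formed a list of 10. Of the 9 that could be tested, 5 were higher and none lower, with a median log2 fold change of 0.95 against -0.03 for all genes. Besides Il2rb, Il2rg and Il10ra, these were the CTLA-4 and CD28 ligands Cd86 (1.07 ± 0.17, adjusted p = 5.47e-04) and Cd80 (2.23 ± 0.33, adjusted p = 3.39e-04). Cd80 was at 0.471, 0.461, 0.571 and 0.312 CPM in vehicle and 2.77, 2.58, 2.05 and 1.22 CPM in MC903 libraries, and the lowest MC903 value was again that of replicate 4. Fgl1, a soluble LAG-3 ligand, was at 1.94 ± 0.286 and 1.22 ± 0.371 CPM in the 2 groups and was not called (-0.67 ± 0.26, adjusted p = 0.0612).

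Among 17 other inhibitory checkpoint receptors and ligands, 15 could be tested, 8 were higher and 2 lower (median 0.69). Lair1, a collagen receptor of leukocytes, rose by 2.90 ± 0.21, adjusted p = 2.31e-06, and Havcr2, which encodes TIM-3, by 1.84 ± 0.15, adjusted p = 6.89e-06. Tigit, a receptor that regulatory T cells share with activated T and NK cells and the gene of that list with the largest rise after Lair1, went from 0.589, 0.692, 0.628 and 0.312 CPM to 5.80, 4.42, 2.78 and 3.08 CPM (2.85 ± 0.33, adjusted p = 6.07e-05). Cd96, a related receptor of T and NK cells, moved the other way, from 5.89, 4.92, 5.37 and 4.68 CPM to 1.55, 2.08, 2.78 and 2.76 CPM (-1.19 ± 0.22, adjusted p = 0.00134), with no overlap. The other gene that fell was Cd200 (-0.49 ± 0.14, adjusted p = 0.0177). Tigit, Cd96 and Cd200 are named here after their values were seen.

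TNF-family costimulatory genes of T cells were higher in 5 of 7 tested, of 10 listed, with none lower (median 1.29). Tnfrsf9, which encodes 4-1BB, rose by 2.29 ± 0.20, adjusted p = 7.52e-06 and Tnfrsf1b, the second TNF receptor, by 1.80 ± 0.18, adjusted p = 2.33e-05. The other 3 were Tnfrsf4 (OX40, 1.95 ± 0.21, adjusted p = 3.45e-05), Tnfrsf18 (GITR, 1.29 ± 0.17, adjusted p = 1.21e-04) and Cd27 (0.82 ± 0.24, adjusted p = 0.0191). Of the ligand genes on the list, Tnfsf9 (0.15 ± 0.25, adjusted p = 0.655) and Tnfsf18 (-0.58 ± 0.30, adjusted p = 0.137) were not called, and Tnfsf4, Cd40lg and Cd70 were too low to test. Tnfrsf4, Tnfrsf18 and Cd27, and the ligands, were named after their values were seen.

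A list of 18 further genes associated with regulatory T cells was split: of 17 tested, 9 were higher and 3 lower (median 0.46). Batf, a factor of effector regulatory T cells and other activated lymphocytes, rose by 2.32 ± 0.23, adjusted p = 2.10e-05. Izumo1r, which encodes folate receptor 4, a surface protein of regulatory and anergic CD4+ T cells, had 1 count in all vehicle libraries together and 57 in the MC903 libraries (adjusted p = 7.47e-05). Scaled to library size, its ratio of summed counts was 66.7 (95% exact interval 11.5 to 2681), and its fitted fold change depends on the prior count. Entpd1, which encodes the ectonucleotidase CD39, also rose (0.90 ± 0.13, adjusted p = 2.87e-04). Of the 3 lower genes, Ikzf4, which encodes the Helios relative Eos, fell most (-1.12 ± 0.17, adjusted p = 3.91e-04), from 16.1, 13.1, 10.3 and 11.5 CPM to 6.41, 6.08, 5.70 and 5.27 CPM without overlap, so both Ikaros-family genes examined were lower. The chemokine receptor genes Ccr8 (1.70 ± 0.30, adjusted p = 0.00102) and Ccr4 (-0.73 ± 0.23, adjusted p = 0.0237) moved in opposite directions. Entpd1, Ikzf4, Ccr8 and Ccr4 were named after their values were seen.

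**Figure D3:**
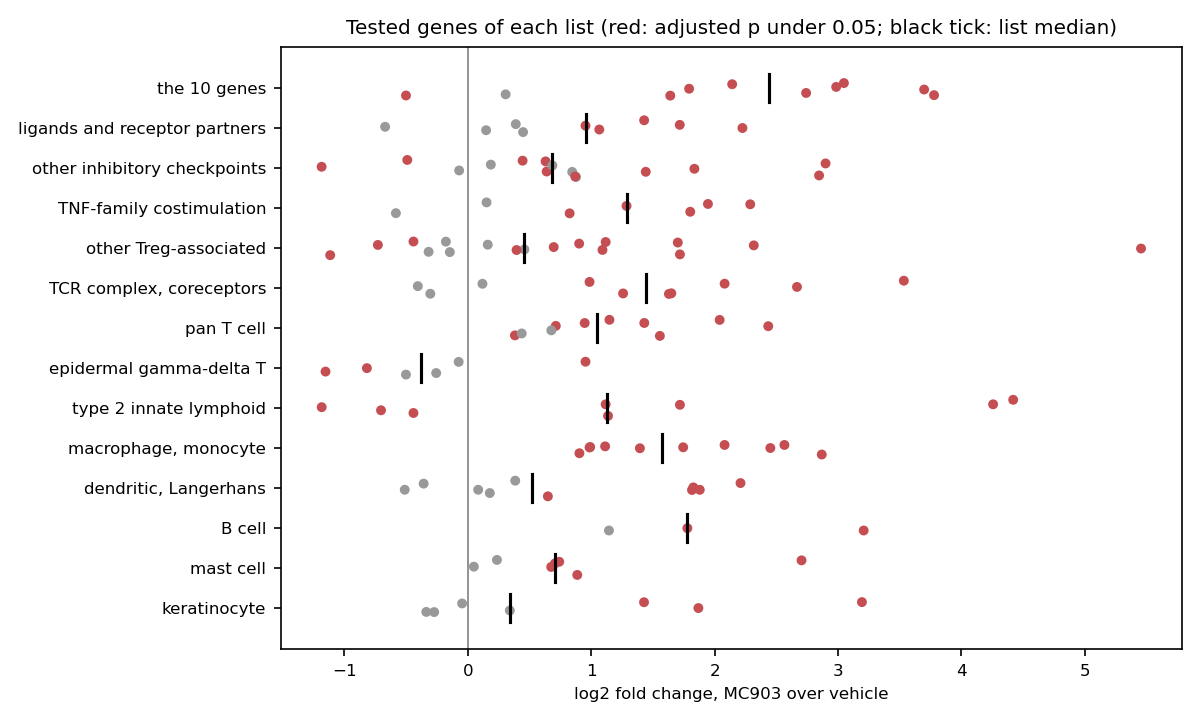
Log2 fold change, MC903 over vehicle (horizontal axis), of every tested gene in the list of 10 and in 13 lists of partners and cell type markers; red points passed an adjusted p of 0.05, grey points did not, and black ticks are list medians. The median of the 10 genes, 2.44, stands to the right of the other list medians. Foxp3, Pdcd1, Pdcd1lg2 and Il10, and some genes of other lists, could be tested only through the MC903 libraries, which favours a higher median.

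T cell genes did not all move with the 10. In the list of receptor complex and coreceptor genes, 7 of 10 were higher and none lower (median 1.44). The coreceptor gene Cd4 went from 3.83, 2.46, 2.46 and 1.62 CPM to 13.8, 14.1, 7.69 and 8.52 CPM (2.08 ± 0.29, adjusted p = 2.05e-04). Cd8a rose by 2.67 ± 0.32, adjusted p = 7.90e-05 and Cd8b1 by 3.53 ± 0.53, adjusted p = 3.71e-04, each from 14 counts in all vehicle libraries together. The constant-region genes of the alpha-beta receptor were higher, Trac by 1.65 ± 0.21, adjusted p = 1.11e-04, Trbc1 by 0.99 ± 0.21, adjusted p = 0.00347 and Trbc2 by 1.63 ± 0.13, adjusted p = 4.18e-06. Cd3d was the only CD3 chain gene to rise (1.26 ± 0.18, adjusted p = 3.04e-04), while Cd3e (-0.30 ± 0.14, adjusted p = 0.102), Cd3g (0.12 ± 0.17, adjusted p = 0.607) and Cd247 (-0.41 ± 0.22, adjusted p = 0.152) did not pass the test. On the list of epidermal gamma-delta T cell genes, 6 could be tested, 2 were lower and 1, Il2rb, was higher. The lower pair were the receptor genes Trdv4 (-0.82 ± 0.19, adjusted p = 0.00620) and Tcrg-V5 (-1.15 ± 0.31, adjusted p = 0.0127), the latter named after its values were seen. Pan T cell genes were higher in 8 of 10, led by the adhesion receptor gene Cd2 (2.04 ± 0.19, adjusted p = 1.52e-05) and Cd6 (2.43 ± 0.31, adjusted p = 1.24e-04).

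**Figure D4:**
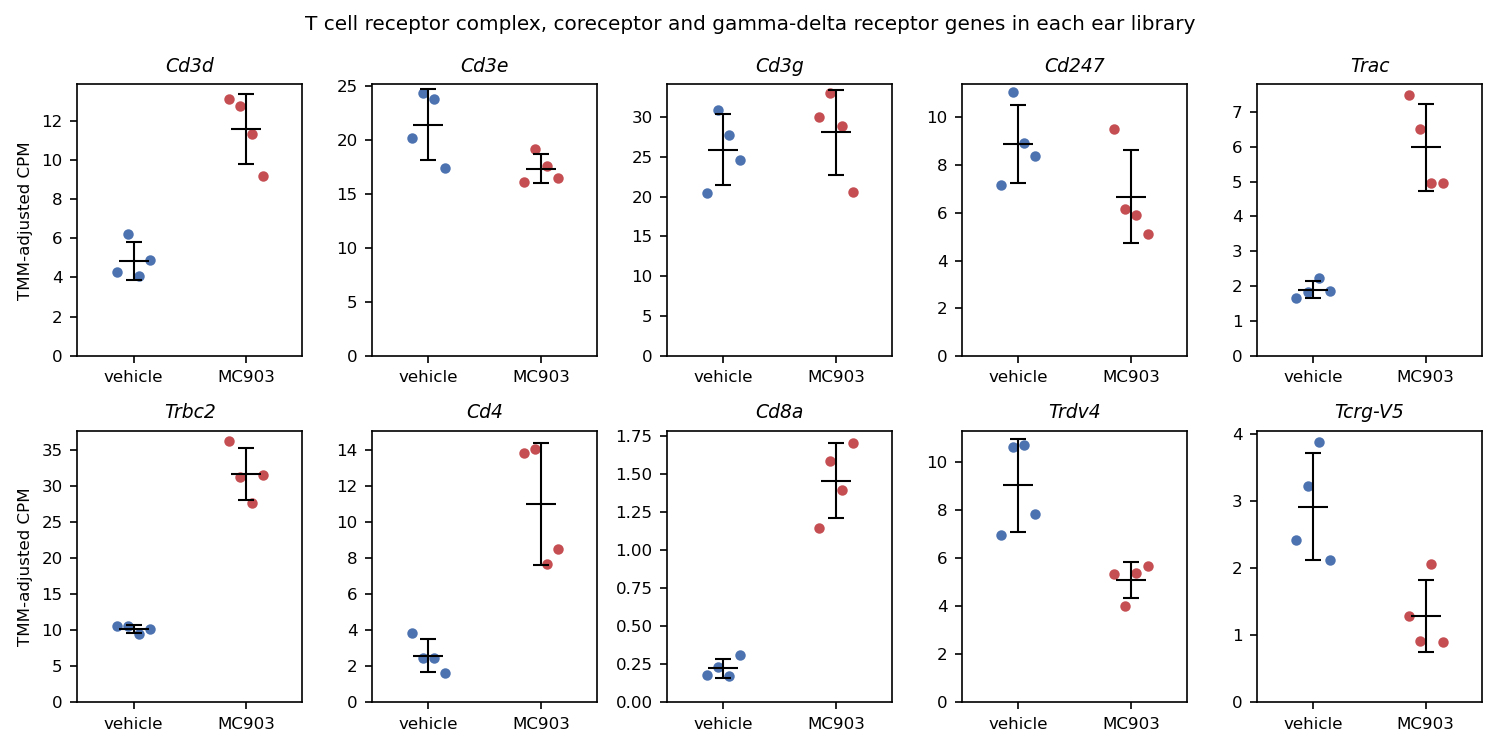
TMM-adjusted CPM (vertical axes, each from 0) of 4 CD3 chain genes, 2 alpha-beta receptor constant genes, 2 coreceptor genes and 2 gamma-delta receptor genes in 4 vehicle and 4 MC903 ear libraries; points are libraries, black lines the mean and SD. Cd3d, Trac, Trbc2, Cd4 and Cd8a are higher in MC903 libraries, Trdv4 and Tcrg-V5 lower, and Cd3e, Cd3g and Cd247 overlap.

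Because every T cell carries CD3, the 10 genes were also fitted per summed count of Cd3d, Cd3e, Cd3g and Cd247 in place of the library size. The CD3 sum was 52.1, 72.5, 64.5 and 55.2 CPM in vehicle and 68.7, 71.1, 63.7 and 51.3 CPM in MC903 libraries, 2 overlapping ranges. The highest was that of vehicle replicate 2, the library with the salivary gland counts. Per CD3 count the same 8 genes were higher and none lower, while 13.7% of all genes tested were higher and 15.6% lower. Foxp3 was at 0.791, 0.954, 0.797 and 0.792 counts per 100 CD3 counts in vehicle and 6.58, 7.03, 7.28 and 5.54 in MC903 libraries, a log2 fold change of 2.97 ± 0.32 (adjusted p = 2.10e-07). Each MC903 value was above all vehicle values. Icos went from 4.63, 6.47, 5.31 and 6.56 to 32.9, 48.1, 45.0 and 50.8 per 100 CD3 counts. Ikzf2 did not pass this test (-0.54 ± 0.23, adjusted p = 0.0791).

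The calls depended on the T cell gene used as the scale. Cells other than T cells also use Cd274, Pdcd1lg2, Il10 and Ikzf2, so for these genes no such scale gives a level per T cell. Cd4 marks helper and regulatory T cells and, in mice, some dendritic cells. Per Cd4 count, 2 of the 10 genes were higher, Pdcd1lg2 at 1.57 (adjusted p = 0.00190) and Il10 at 1.61 (adjusted p = 0.00475), against 1.44% of all genes tested, and 92.9% of all genes were lower. Foxp3 at 0.95 (adjusted p = 0.0674), Icos at 0.83 (adjusted p = 0.0509), Ctla4 at 0.65 (adjusted p = 0.171) and Pdcd1 at 0.04 (adjusted p = 0.932) were not called. Il2ra at -0.34 (adjusted p = 0.439) and Cd274 at -0.55 (adjusted p = 0.188) turned to negative values that were not called. The Foxp3 count per 100 Cd4 counts was 10.8, 28.1, 20.9 and 26.9 in vehicle and 32.7, 35.5, 60.3 and 33.3 in MC903 libraries, which did not overlap although the test was missed. The Pdcd1 count per 100 Cd4 counts was 12.3, 40.6, 20.9 and 34.6 in vehicle and 26.8, 14.2, 38.8 and 27.6 in MC903 libraries, and these overlapped throughout. Ikzf2 at -2.58 (adjusted p = 1.57e-08) and Lag3 at -1.71 (adjusted p = 8.55e-04) were lower per Cd4 count. Cd4 itself had 65, 32, 43 and 26 counts in the vehicle libraries, and the fits take the scaling count as free of error. Per count of Cd3d, the CD3 chain that rose, 6 of the 10 genes were higher and 2 lower, against 3.55% and 83.9% of all genes. Foxp3 was among the 6, at 1.78 (adjusted p = 5.37e-05). Per count of Cd3e, 8 were higher and none lower, against 28.7% and 7.97% of all genes.

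**Figure D5:**
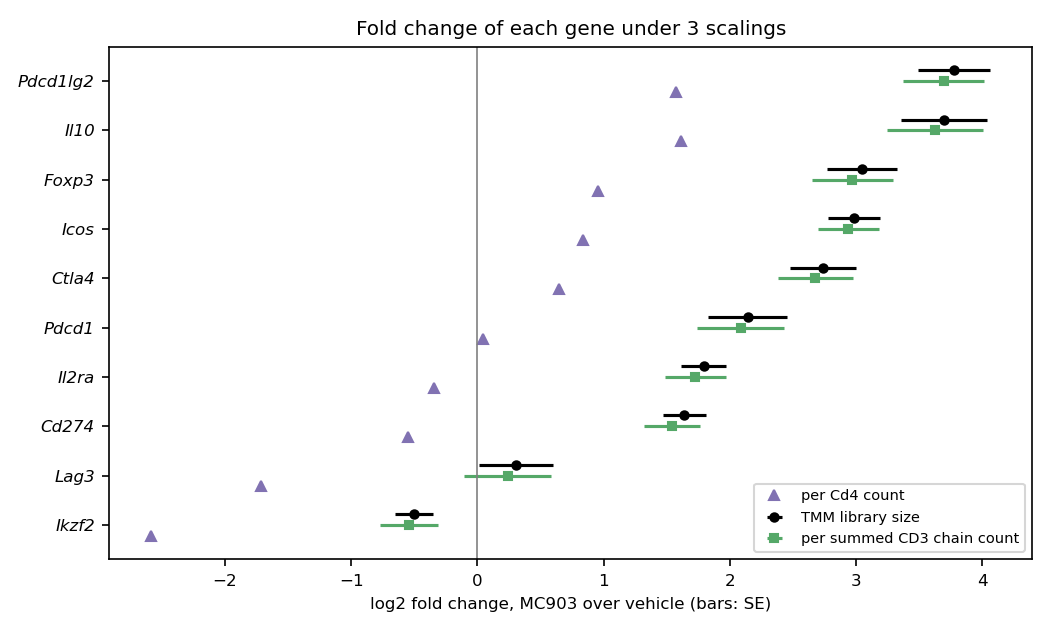
Log2 fold change, MC903 over vehicle (horizontal axis), of the 10 genes scaled by TMM library size (black circles), by summed CD3 chain count (green squares) and by Cd4 count (purple triangles); bars are standard errors, drawn for the first 2 scalings. The first 2 scalings nearly coincide, and scaling by Cd4 moves every gene to the left.

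Markers of other cells that could carry these transcripts were also summed. The macrophage and monocyte list was higher in 10 of 10 genes and the dendritic and Langerhans cell list in 5 of 10, with the smallest p in C1qa (2.57 ± 0.17, adjusted p = 1.53e-06) and Fscn1 (1.88 ± 0.14, adjusted p = 3.81e-06). Genes of type 2 innate lymphoid cells, which can carry CD25 and ICOS, were higher in 5 and lower in 3 of 8 tested (median 1.13). Areg was at 4.42 ± 0.30, adjusted p = 1.89e-06. The summed level of the list was 904 to 1069.8 CPM in vehicle and 827 to 983 CPM in MC903 libraries, which overlapped. The most abundant genes weigh most in that sum, so it is not a measure of the number of these cells. Mast cell genes were higher in 5 of 7 (Fcer1a 2.70 ± 0.30, adjusted p = 4.24e-05). For B cells, the lineage factor gene Pax5, named after its values were seen, had 0 counts in all 8 libraries, 3 of 6 markers could be tested, and 2 of these were higher (Cd22 3.21 ± 0.47, adjusted p = 2.96e-04). Keratinocyte genes were higher in 3 of 7, with Krt1 at 3.19 ± 0.23, adjusted p = 2.75e-06. The part of these cells in the levels of the 10 genes was not tested.

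The genes whose pattern over the 8 libraries was most like that of a member were found by the root mean square difference of log2 CPM centred on each gene's mean, among genes within 2 log2 units of the member's level. For Foxp3 they were Sirpb1c (0.161; log2 fold change 2.94 ± 0.26), Tlr1 (0.206; log2 fold change 2.77 ± 0.23) and Phlda2 (0.237; log2 fold change 3.39 ± 0.32), of 3578 candidates. For Ctla4 they were Il4 (0.171; log2 fold change 2.82 ± 0.24), Serpina3f (0.202; log2 fold change 2.81 ± 0.31) and Rgs1 (0.208; log2 fold change 2.56 ± 0.20), of 5115 candidates. Cd274 was nearest to Cxcl16 (0.0950; log2 fold change 1.48 ± 0.15), Sgo1 (0.130; log2 fold change 1.66 ± 0.15) and Efhd2 (0.134; log2 fold change 1.47 ± 0.15), of 8921 candidates. The first number for each gene is that difference in log2 units. The first of these genes, Sirpb1c, encodes a signal-regulatory protein of myeloid cells, and Il4 encodes interleukin 4, the cytokine of type 2 T helper cells. The 8 libraries fall into the 2 groups, so genes with a group difference of similar size come out as alike.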

How the data were processed

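Whole-ear RNA of 4 vehicle and 4 MC903 mice was sequenced as single reads of 50 bases after ribosomal RNA removal, with no strand-marking step named, per the labels' protocols. The authors deposited, per library, read counts for each Ensembl gene as whole numbers, with CPM and RPKM beside them. The submitters' processing notes name STAR 2.0.4b, Subread, featureCounts 1.4.5 and mm10; the annotation release, and how multiply mapped or shared reads were handled, is not stated there. Deposited CPM and RPKM values were only checked against the counts and match them to within 2.33e-10 and 5.82e-11; RPKM values in the text were recomputed from TMM-adjusted CPM. Of 41388 identifiers, 40254 were named from a symbol table; Trdc was not matched and is not analysed here.

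The quasi-likelihood F-test of edgeR 4.0.16 (R 4.3.3) was run on TMM-normalized counts after filterByExpr (group as the model, Benjamini-Hochberg over all genes tested, threshold 0.05). The standard error is the log2 fold change divided by the square root of F. A further fit replaced the library size by the summed CD3 count. Ratios of summed counts are divided by the ratio of the groups' summed TMM-adjusted library sizes; their exact intervals are conditional Poisson intervals and, like the floor of 3 counts, cover counting error only, since amplified reads without molecular identifiers need not be separate molecules. Libraries of a group differed beyond sampling noise (chi-square per degree of freedom at least 10.1). It was 328 to 349 for pairs with vehicle replicate 2, the library with the salivary gland counts. Among the other vehicle pairs it was 31.2 to 34.9, and among MC903 pairs 10.1 to 66.0.

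The members and the 14 lists beside them were chosen with earlier results of these data known. Named genes are all members, all genes of the partner and receptor complex lists, the 2 tested genes of smallest p in each other list (1 for non-T cell lists), and the 3 nearest patterns of Foxp3, Ctla4 and Cd274; others are marked as named after their values were seen. On simulated data for MC903 against vehicle (15771 genes), the fit called 8 of 48 genes changed by 1.5-fold, 27 of 48 by 2-fold, 49 of 49 by 4-fold and 50 of 50 by 8-fold. Only 200 genes were changed there, a far smaller share than the 41.5% called in the real data. The adjustment was therefore stricter, and these detection rates need not carry over. Alternatives were other normalizations, filters and scaling genes, DESeq2 1.42.0, limma-voom (limma 3.58.1), a robust dispersion fit, a replicate block and leaving out libraries.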

Additional observations from a re-analysis of the deposited data

How the results depend on the processing

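The 8 genes called higher were also called higher under all 18 alternatives to the comparison of MC903 with vehicle, which were other normalizations, filters and tools, a replicate block, and libraries left out; the count of 8 did not change. The number called lower was 1, and 0 to 1 when a single library was left out, being 0 without vehicle replicate 2 and 0 without vehicle replicates 2 and 4 together, the Ikzf2 call described above; over the 18 alternatives the adjusted p of Ikzf2 ran from 0.00724 to 0.107. Lag3 was not called under any of them (adjusted p 0.252 to 0.751). Genes called over the whole table numbered 6682, and 4800 to 7072 under the alternatives (24.6 to 43.1% of the genes each tested).

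Per CD3 count, 8 members were higher and 0 lower. With the Cd4 count as the scale, 2 were higher and 2 lower, and Il2ra (-0.34), Cd274 (-0.55) and Lag3 (-1.71) turned to a negative log2 fold change. With Cd3d alone, 6 were higher and 2 lower (Ikzf2 and Lag3, the latter at -0.94), and Il2ra and Cd274 were not called; with Cd3e alone, 8 were higher and 0 lower. These settings differ by construction, as Cd4 and Cd3d rose and Cd3e did not. Of all genes tested, 13.7% were higher and 15.6% lower per CD3 count, and 1.44% and 92.9% per Cd4 count. With Cd3d the shares were 3.55% and 83.9%, and with Cd3e 28.7% and 7.97%. Most genes were thus lower per Cd4 or Cd3d count, so a lower call there is not particular to Ikzf2 and Lag3. Leaving out single libraries from the fit per CD3 count gave 0 to 1 lower, the 1 being Ikzf2 without MC903 replicate 4.

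Replicate numbers did not pair the libraries: deviations of same-numbered libraries correlated at -0.204 to 0.0568 over genes, and 0 of 8 libraries correlated best with its own number. With the replicate block, 5705 genes were called over the table, and 8 members were higher and 1 lower, or 8 and 0 per CD3 count. Depth limits mainly Foxp3, Pdcd1, Pdcd1lg2 and Il10, which had 2 to 13 counts in each vehicle library.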
